A study of Mus musculus with 6 samples.

Results

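The 3 mammalian E protein genes are Tcf3, which encodes E2A, Tcf4, which encodes E2-2, and Tcf12, which encodes HEB. Every E2A peak that the authors' annotated peak lists name to one of them was taken, at any distance from the gene. Peaks of all 5 lists that overlapped by at least 1 bp were merged into regions, called sites for these genes. The 3 genes had 144 peaks in 44 sites, out of 32693 regions in the whole series. Tcf4 held 27 of the sites, Tcf12 held 15 and Tcf3 held 2.

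E proteins are class I basic helix-loop-helix (bHLH) transcription factors that bind the E-box, a short DNA element of the form CANNTG. They bind as dimers with one another or with tissue-specific class II bHLH proteins, such as the proneural factors of the developing nervous system. The Id proteins lack the DNA-binding basic region and hold E proteins off DNA by forming inactive dimers with them. E12 and E47 are splice forms of Tcf3 that differ in the bHLH domain.

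E2A was mapped by ChIP-seq, which sequences the DNA that an antibody pulls down with a protein, in neural stem cells cultured from C57BL/6J mouse embryos (E12.5). FGF-2 and EGF, each at 20 ng/ml, kept the cells dividing. The groups were E12 KO cells (E12KO, described as E12-/-; 1 library), E47 KO cells (E47KO, described as E47-/-; 1 library), wild-type cells (wt; 3 libraries), and 1 wild-type input library that entered no comparison here. All cells were fixed with 1.5 mM EGS, a protein crosslinker, for 20 min and then with 1% formaldehyde for 10 min, and the 5 ChIP libraries used the same rabbit antibody to E2A. The labels do not say how the alleles were made, or whether the wt libraries came from separate embryos or cultures. A peak list says nothing on the E12-specific or E47-specific exon, and no expression was measured, so neither the genotypes nor the cell type could be checked.

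The lists held 25229 peaks in E12KO, 22176 in E47KO, and 6814, 12772 and 24194 in wt replicates 1, 2 and 3. The mean over the wt lists was 14593 ± 8832 peaks (SD, n = 3). Read depth is unknown. The false discovery rate label on the deposited lists was the same for E12KO, E47KO and wt replicates 2 and 3 and another for wt replicate 1, so wt replicate 1 may have been called at a different threshold. The lists of E12KO, E47KO and wt replicate 3 were thus long, and those of wt replicates 1 and 2 short. A peak missing from a list may have been below that list's threshold, so its lack does not show that E2A was absent there. Each knockout has 1 library, so its values carry no replicate error and the genotypes were not tested against each other.

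The sequences before the transcript starts are shown for Tcf3 and Tcf12. The reason is that the authors' annotation puts E2A peaks at the Tcf3 start and at 3 of the 4 Tcf12 starts used here. Tcf4 also had peaks near its starts, but its sequence is not used here. The windows are the 250 bases upstream of each start, from RefSeq on GRCm38.p6, printed along the gene's minus strand, 5′ to 3′, with every E-box of the form CANNTG in capitals. The peak positions are on mm9, so the windows were not placed under the peaks. The Tcf3 window is chr10:80433636-80433885, and Tcf12 windows 1, 2 and 3 are chr9:72111820-72112069, chr9:72111202-72111451 and chr9:71896097-71896346.
Tcf3: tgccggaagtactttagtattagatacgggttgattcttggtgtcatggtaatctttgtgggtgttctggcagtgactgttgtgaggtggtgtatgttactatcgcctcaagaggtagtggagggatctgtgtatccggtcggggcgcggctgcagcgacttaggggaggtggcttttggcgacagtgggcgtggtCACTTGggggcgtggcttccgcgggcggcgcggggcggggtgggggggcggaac
Tcf12 window 1: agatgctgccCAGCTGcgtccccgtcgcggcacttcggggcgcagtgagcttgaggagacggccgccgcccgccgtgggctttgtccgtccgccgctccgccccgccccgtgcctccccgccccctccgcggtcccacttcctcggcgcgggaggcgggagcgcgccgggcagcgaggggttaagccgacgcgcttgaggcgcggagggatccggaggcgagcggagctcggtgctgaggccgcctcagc
Tcf12 window 2: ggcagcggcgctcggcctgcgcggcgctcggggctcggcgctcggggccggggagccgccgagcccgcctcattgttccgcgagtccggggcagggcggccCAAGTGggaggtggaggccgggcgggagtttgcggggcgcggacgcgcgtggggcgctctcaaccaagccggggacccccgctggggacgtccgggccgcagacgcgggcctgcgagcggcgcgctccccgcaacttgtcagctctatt
Tcf12 window 3: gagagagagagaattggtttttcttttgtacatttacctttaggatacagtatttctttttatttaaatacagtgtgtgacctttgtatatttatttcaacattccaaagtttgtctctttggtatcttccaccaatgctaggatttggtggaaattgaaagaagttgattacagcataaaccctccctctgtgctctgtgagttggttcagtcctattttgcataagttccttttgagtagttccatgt

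The Tcf3 window and Tcf12 windows 1 and 2 each held 1 E-box. It was CACTTG at 54 bp upstream of the Tcf3 start, CAGCTG at 240 bp upstream of the start of Tcf12 window 1, and CAAGTG at 149 bp upstream of the start of window 2. Tcf12 window 3 held none. CAGCTG, a form that reads the same on both strands, was in the first Tcf12 window only, and CAGGTG was in none of the 4 on either strand. Among 32851 RefSeq windows of the same length, 66.2% held CANNTG, 13% held CAGCTG and 17.2% held CAGGTG on either strand, so E-boxes of these kinds are common in such windows. The GC content was 59.6% at Tcf3, 76.8% and 78.0% at Tcf12 windows 1 and 2, and 34.8% at window 3, with a median of 52.4% over all windows. The starts of windows 1 and 2 lie 618 bp apart on GRCm38.p6, as do the outermost Tcf12 starts on mm9, 71959626 and 71959008. Between windows 1 and 3 the distance is 215723 bp, against 215736 bp between the first and the internal start at 71743890 on mm9.

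The starts and gene spans used here are those of transcripts to which the authors' annotation ties a listed peak. Other transcripts were left out, so a gene may reach further and have further starts. Tcf3 lies on the minus strand of chromosome 10 (mm9, 79871910 to 79896398, 24.5 kb) and has 1 such start. Tcf4 lies on the plus strand of chromosome 18 (69504146 to 69847621, 343 kb) with starts at 69504146, 69505375, 69505906 and 69753080, the last of them far inside the gene. Tcf12 lies on the minus strand of chromosome 9 (71692059 to 71959626, 268 kb) with starts at 71959626, 71959008, 71743890 and 71717586. By the authors' annotation, 7 of the 44 sites were promoters. The others were placed by their middles against these gene spans. Of them, 22 lay inside a gene away from its promoters, 12 lay upstream of the first start and 3 lay downstream of the gene.

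**Figure D1:**
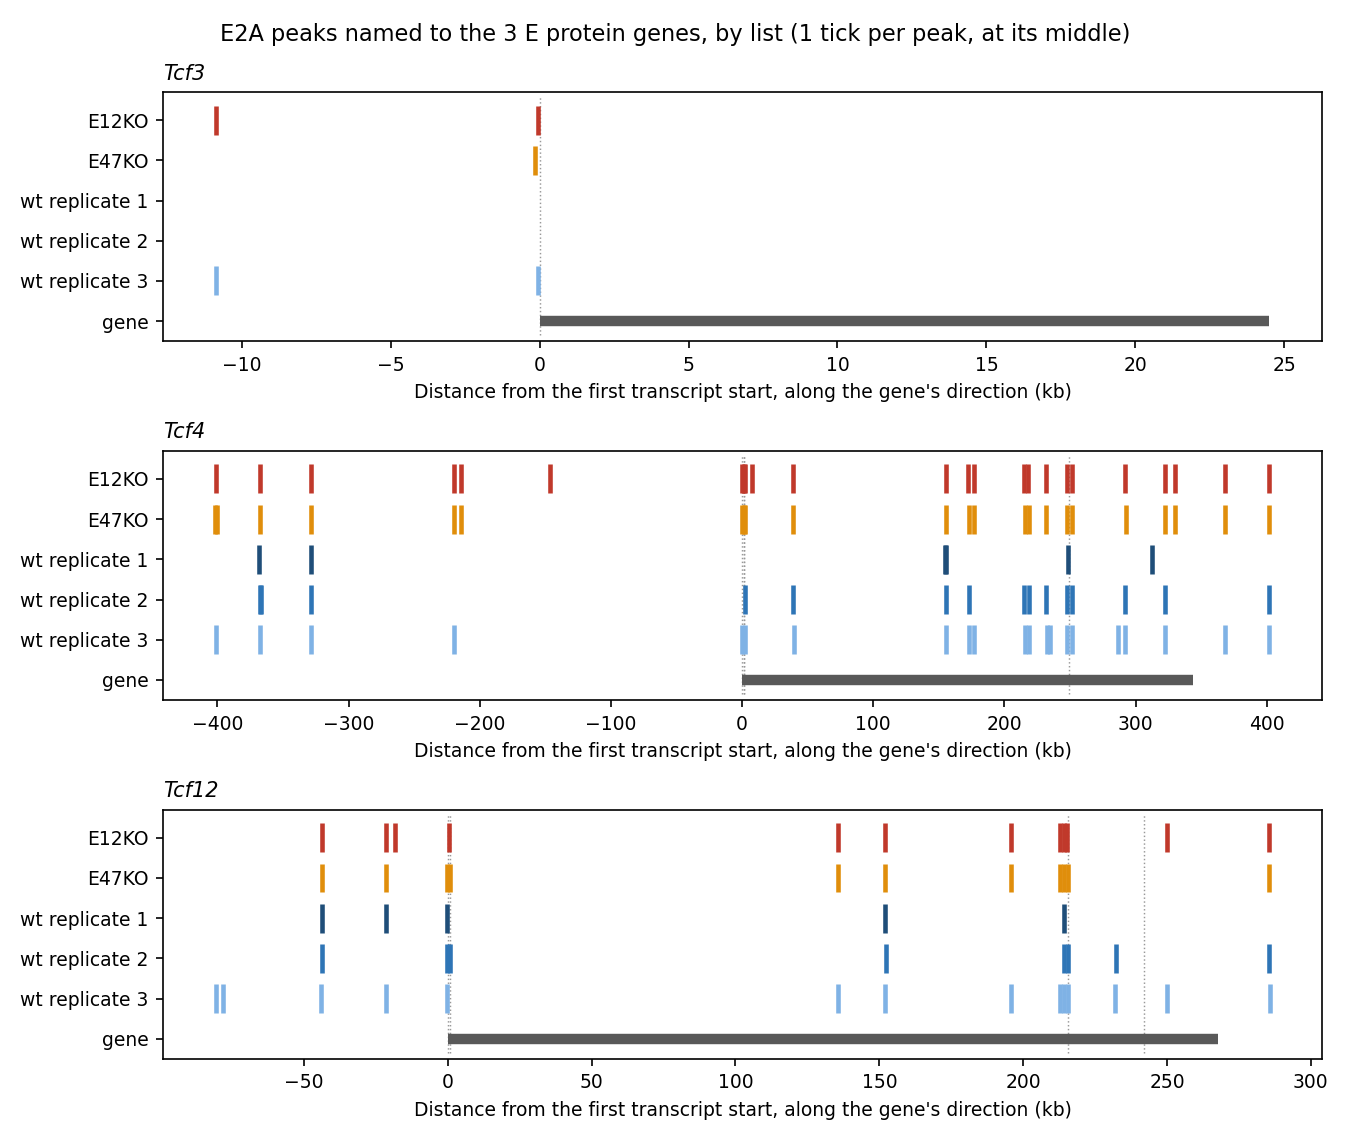
Position of every peak named to Tcf3, Tcf4 and Tcf12 in each of the 5 lists. The x axis is the distance from the gene's first transcript start in kb, each tick is 1 peak at its middle, the grey bar is the gene and dotted lines are transcript starts. Tcf3 has peaks in E12KO, E47KO and wt replicate 3 alone, and most Tcf4 and Tcf12 positions recur from list to list.

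Tcf4 had the most peaks of the 3 genes in every list. It had 24 peaks in E12KO and 23 in E47KO, against 6, 15 and 21 in wt replicates 1, 2 and 3. Tcf12 had 12 peaks in E12KO and 11 in E47KO, against 5, 8 and 14 in the wt replicates. Tcf3 had 2 peaks in E12KO and 1 in E47KO, against 0, 0 and 2 in the wt replicates. For each gene the short lists of wt replicates 1 and 2 held fewer peaks than any of the 3 long lists.

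Per 10000 peaks of a list, Tcf4 had 9.51 peaks in E12KO and 10.4 in E47KO, against 8.81, 11.7 and 8.68 in wt replicates 1, 2 and 3 (9.74 ± 1.73, SD, n = 3). Both knockout values lay within the wt range. Tcf12 had 4.76 per 10000 in E12KO and 4.96 in E47KO, against 7.34, 6.26 and 5.79 in the wt replicates (6.46 ± 0.795). Both knockout values for Tcf12 lay below the 3 wt values, among which the longest list had the lowest. For the 3 genes together the values were 15.1 in E12KO and 15.8 in E47KO, against 16.1, 18.0 and 15.3 in the wt replicates (16.5 ± 1.39), so E47KO lay within the wt range and E12KO just below it. These differences were not tested.

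**Figure D2:**
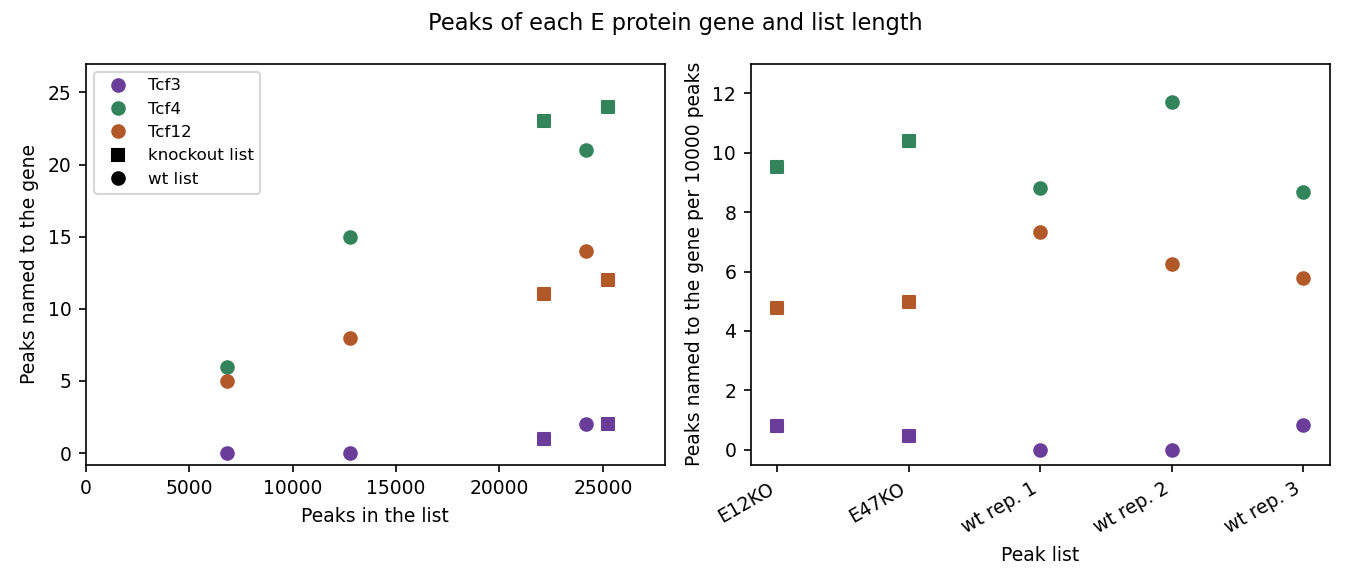
Left: peaks named to each gene (y) against the number of peaks in the list (x). Right: the same counts per 10000 peaks of the list, with E12KO and E47KO left of the 3 wt lists. For each gene the 2 short wt lists have the lowest counts, and per 10000 peaks Tcf12 is at 4.76 and 4.96 in the knockouts, against 5.79 to 7.34 in wt.

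Tcf3, the gene of E2A itself, had a promoter site at 79895814 to 79897054 on chromosome 10. The peak over it was 858 bp wide in E12KO and 997 bp in E47KO, and 1241 bp in wt replicate 3. All 3 peaks covered the start at 79896398. Wt replicates 1 and 2 had none, and their nearest peaks of any gene lay 128 kb and 34.8 kb from the start. The promoter peak was thus in the 3 long lists and absent from both short ones, and both splice-form knockouts had it.

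The other Tcf3 site was intergenic, 10.9 kb upstream of the start (79907132 to 79907389), with a peak of 258 bp in E12KO and none in E47KO, against 240 bp in wt replicate 3 alone of the wt lists. Neither Tcf3 site was in at least 2 wt lists, as 37.4% of all regions of the series were. A further peak inside Tcf3 carries another gene's name, Uqcr11, and so is no member by the rule. It ran from 79875442 to 79876546 over exon 17 of 19 of a Tcf3 transcript and was listed in wt replicate 3 only. It was 1105 bp wide, and of the 2623 wt replicate 3 peaks at least as wide, 14 (0.534%) were in no other list.

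Tcf4 encodes an E protein that is abundant in the developing forebrain, and its 27 sites reached from 401 kb upstream of the first start to 402 kb downstream of it, over 804 kb. Of these, 14 were in at least 2 wt lists (called wt consensus sites; 37.4% of all regions), and the same 14 were in 4 or 5 lists (34.6% of all regions). Sites in all 5 lists numbered 4 (12.7% of all regions). The median gap between adjacent Tcf4 sites was 13.7 kb, with a smallest gap of 0.227 kb and a largest of 145 kb.

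The internal Tcf4 promoter, at the start at 69753080, was the widest site of the gene. This site (69750860 to 69753419) held a peak of 2297 bp in E12KO and 2448 bp in E47KO, against 564, 2284 and 2465 bp in wt replicates 1, 2 and 3. In E12KO, E47KO and wt replicates 2 and 3 the peak covered the start, and in wt replicate 1 it ended 0.234 kb upstream of it. By width it ranked 258 of 25229 peaks in E12KO and 102 of 22176 in E47KO, against 12 of 12772 in wt replicate 2 and 105 of 24194 in wt replicate 3. In wt replicate 1 it ranked 1630 of 6814.

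The 3 outer starts of Tcf4 lie within a short stretch and carried 3 promoter sites. The first (69503623 to 69504782) covered the start at 69504146 and was 566 bp wide in E12KO and 693 bp in E47KO, against 1096 bp in wt replicate 3, with none in the other wt lists. The second (69505196 to 69505913) covered the start at 69505375 and was 718 bp in E12KO and 227 bp in E47KO, with no peak in any wt list, a pattern of 4.41% of all regions. The E12KO peak also reached the start at 69505906. The third (69506140 to 69507089) was 950 bp in E12KO and 311 bp in E47KO, against 369 and 879 bp in wt replicates 2 and 3.

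Wt replicate 1 thus had no peak at the outer Tcf4 promoters, and its nearest peak to the first start was 155 kb away. A peak within 1 kb was listed in 3, 4 and 4 of the 5 lists at the starts at 69504146, 69505375 and 69505906, and in all 5 lists at the internal start. Although the second site was in both knockouts only, wt replicates 2 and 3 each had a peak within 1 kb of that start, at 0.847 kb and 0.593 kb.

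Upstream of the first Tcf4 start used here there were 6 sites. The site 368 kb upstream (69135665 to 69137539) was 1733 bp wide in E12KO and 1626 bp in E47KO, against 932, 1357 and 1774 bp in wt replicates 1, 2 and 3. The site 328 kb upstream (69175072 to 69176391) was 1149 bp in E12KO and 998 bp in E47KO, against 536, 515 and 925 bp in the wt replicates. Both were in all 5 lists, and they were the only upstream Tcf4 sites in more than 1 wt list. The other 4 lay 401, 219, 214 and 146 kb upstream. Those at 401 and 219 kb were in both knockouts and wt replicate 3, and that at 214 kb was in the knockouts but in no wt list. That at 146 kb, annotated to a 5′ UTR, was in E12KO alone, as were 9.61% of all regions. The site at 401 kb was wide for one found in only 1 wt list, with 1625 bp in E12KO and 1163 bp in E47KO, against 1940 bp in wt replicate 3.

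Inside Tcf4, away from the promoters, lay 15 sites, 9 of them in 4 or 5 lists. The one in all 5 lists (69658725 to 69660959, in intron 4 of 6 of a transcript from the first start) was 2164 bp wide in E12KO and 1715 bp in E47KO, against 893, 1300 and 1772 bp in wt replicates 1, 2 and 3. The other 8 were in both knockouts and in wt replicates 2 and 3 but not 1. The first of these, 39.2 kb from the first start (69542799 to 69543957, intron 2 of 6), was 937 bp in E12KO and 980 bp in E47KO, against 798 and 1147 bp in wt replicates 2 and 3. The site at 173 kb (69675907 to 69677601, intron 4) was 1565 bp in E12KO and 426 bp in E47KO, against 401 and 1641 bp. The knockouts differed in width there, and the wt lists differed more.

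Of the sites in at least 4 lists, 5 lay in a 37.3 kb stretch around the internal promoter (69718988 to 69756260), which held 6 sites when sites up to 20 kb apart were grouped. Besides the promoter itself, the site at 69718988 to 69719721 in intron 5 was 636 bp in E12KO and 515 bp in E47KO, against 277 and 488 bp in wt replicates 2 and 3. Its neighbour at 69721546 to 69723009 was 1426 bp in E12KO and 979 bp in E47KO, against 427 and 974 bp. At both, the wt replicate 2 peak was the narrowest of the 4. The site at 69735414 to 69736893, in intron 8 of 19 of another transcript, was 1339 bp in E12KO and 953 bp in E47KO, against 411 and 1203 bp. The site just past the internal start, at 69754973 to 69756260, was 1288 bp in E12KO and 1025 bp in E47KO, against 660 and 1025 bp. Here too the wt replicate 2 peaks were the narrowest. The sixth site of the stretch, at 69739074 to 69739388, was in wt replicate 3 alone (13.5% of all regions were in a single wt list alone).

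Toward the 3′ end of Tcf4, the site over exon 10 of 20 (69795850 to 69796877) was 757 bp in E12KO and 844 bp in E47KO, against 384 and 1028 bp in wt replicates 2 and 3. The site in intron 15 (69825982 to 69826828) was 717 bp in E12KO and 445 bp in E47KO, against 319 and 740 bp. Both were again missing from wt replicate 1. Another site in intron 15, at 69833751 to 69834131, was 371 bp in E12KO and 344 bp in E47KO with no wt peak. Beyond the gene, the site 402 kb from the first start (69905523 to 69906358) was 535 bp in E12KO and 759 bp in E47KO, against 370 and 776 bp in wt replicates 2 and 3, and a site at 368 kb was in both knockouts and wt replicate 3.

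The remaining intragenic Tcf4 sites were in few lists. One, 177 kb from the first start, was in both knockouts and wt replicate 3, one at 7.64 kb was in E12KO alone, and those at 235 and 286 kb were in wt replicate 3 alone. The site at 69816134 to 69816482 in intron 14 of 19 was in wt replicate 1 alone. In that list, the shortest of the 5, 843 of 6814 peaks (12.4%) were in no other list, and among the 2564 peaks with at least this peak's −log10 q, 183 (7.14%) were.

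**Figure D3:**
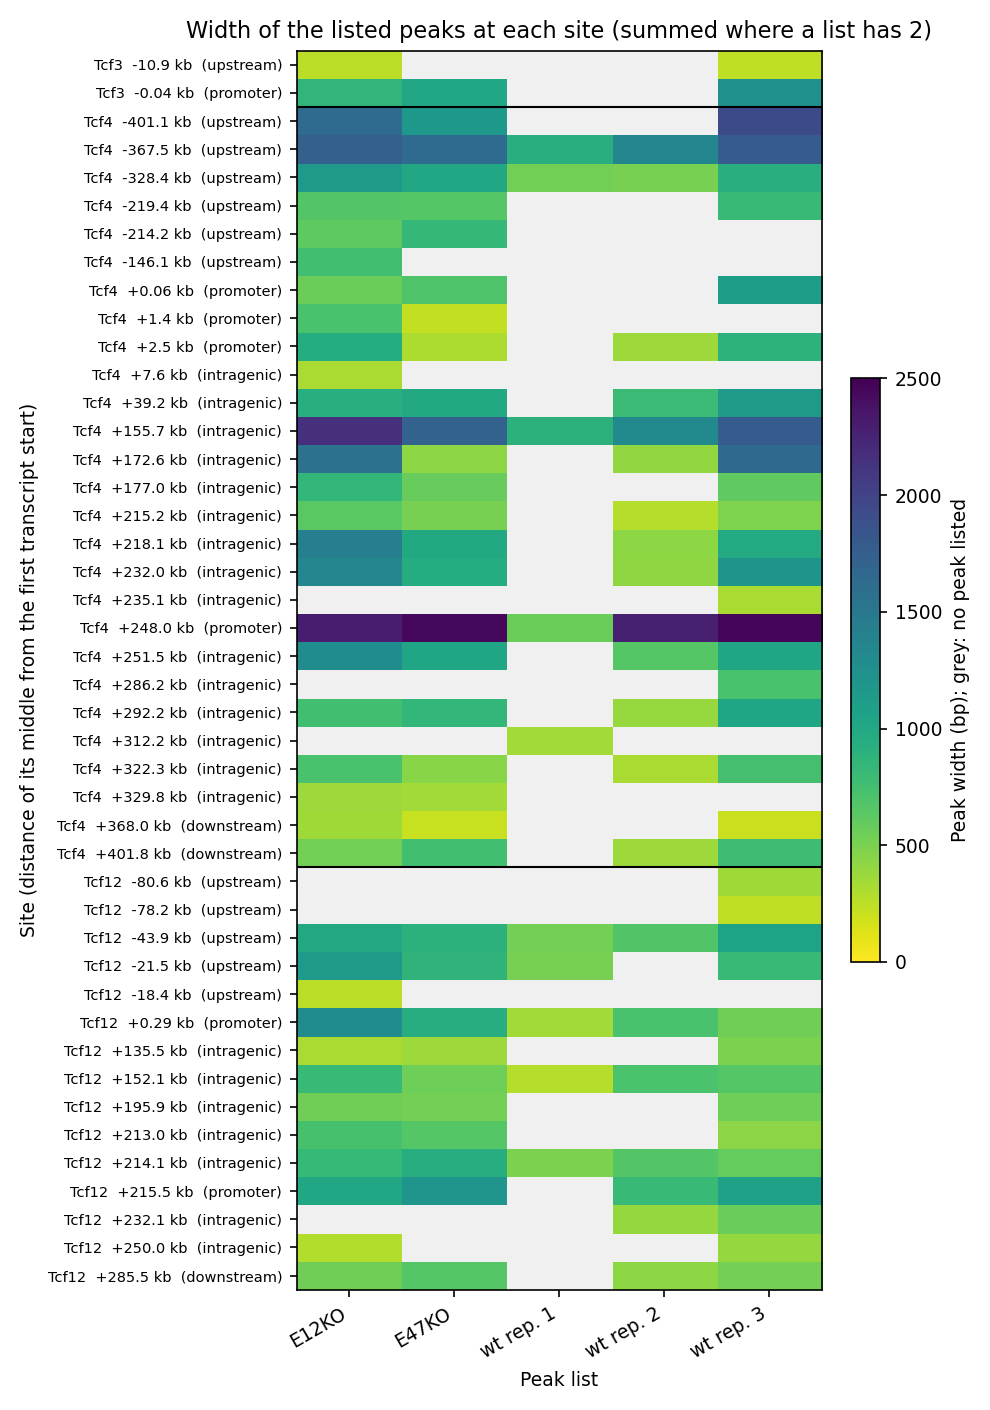
Width in bp of the peak at each of the 44 sites (rows, by gene and by distance from the first start, negative upstream) in E12KO, E47KO and wt replicates 1 to 3 (columns), with grey where no peak was listed. The darkest row is the internal Tcf4 promoter at 248 kb, with 2297 and 2448 bp in the knockouts, and the wt replicate 1 column is coloured at 10 of the 44 sites.

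Tcf12 encodes HEB, which like E2A is widely expressed and pairs with proneural factors. Its 15 sites included 8 wt consensus sites, of which 4 were in all 5 lists. The outer promoter site (71958640 to 71960032) covered both outer starts and was 1295 bp wide in E12KO and 942 bp in E47KO, against 346, 714 and 539 bp in wt replicates 1, 2 and 3. In E47KO and wt replicate 2 these widths are sums of 2 peaks, one near each start. All 5 lists had a peak within 1 kb of each of the outer starts.

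The internal Tcf12 promoter, at the start at 71743890, lay beside a second site. The promoter site (71743422 to 71744741) was 998 bp in E12KO and 1192 bp in E47KO, against 818 and 1073 bp in wt replicates 2 and 3, and all 4 peaks covered the start. The site 1.61 kb upstream of the same start (71745036 to 71745973, in intron 8 of 20) was in all 5 lists, at 824 bp in E12KO and 938 bp in E47KO, against 492, 671 and 593 bp in wt replicates 1, 2 and 3. Another, 2.78 kb upstream (71746304 to 71747043), was in both knockouts and wt replicate 3. Wt replicate 1 had no peak over this promoter, and its nearest peak ended 1.26 kb upstream of the start. The last Tcf12 start, at 71717586, had no peak within 1 kb in any list, and the nearest were 7.78 kb away in E12KO, 25.8 kb in E47KO, and 27.6, 9.74 and 7.74 kb in wt replicates 1, 2 and 3.

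Upstream of Tcf12, the site 43.9 kb from the first start (72002972 to 72004034) was 992 bp in E12KO and 894 bp in E47KO, against 523, 681 and 1045 bp in wt replicates 1, 2 and 3. The site 21.5 kb upstream (71980546 to 71981701) was 1154 bp in E12KO and 871 bp in E47KO, against 508 and 802 bp in wt replicates 1 and 3. It was the only site of the 3 genes in both knockouts and 2 wt lists that wt replicate 2 lacked. The others upstream were a site at 18.4 kb in E12KO alone and sites at 80.6 and 78.2 kb in wt replicate 3 alone.

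Inside Tcf12, the site in intron 5 of 20 at 71807049 to 71807962 was in all 5 lists, with 820 bp in E12KO and 555 bp in E47KO, against 280, 710 and 655 bp in wt replicates 1, 2 and 3. Sites at 136 and 196 kb from the first start were in both knockouts and wt replicate 3, and one at 250 kb was in E12KO and wt replicate 3. The site downstream of the gene, at 71673725 to 71674513, was 538 bp in E12KO and 657 bp in E47KO, against 427 and 526 bp in wt replicates 2 and 3. The adjacent Tcf12 sites lay a median of 16.9 kb apart.

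One Tcf12 site was a wt consensus site with no peak in either knockout. It lay at 71727287 to 71727855 in intron 5 of 13 of a transcript from the internal promoter, 9.98 kb upstream of the start at 71717586. Its peak was 394 bp wide in wt replicate 2 and 569 bp in wt replicate 3, and wt replicate 1 had none. Over the whole series, 230 of 12231 wt consensus regions (1.88%) had no peak in either knockout, and 82 of those 230 (35.7%) were, like this one, in wt replicates 2 and 3 and not 1.

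Set side by side, nearly all wt consensus sites of the E protein genes kept a peak in each knockout, as did wt consensus regions in general. Among 22 sites, 21 carried an E12KO peak, or 95.5%, against 96.6% of all wt consensus regions. The 95% Wilson interval of the 95.5% was 78.2 to 99.2, and it and the intervals below cover counting error only. The same number had one in E47KO, against 93.6%, and the same 21 sites had one in both, against 92% of all. The 22 were 14 Tcf4 sites, all with a peak in both knockouts, and 8 Tcf12 sites, of which 7 had one. These shares lie near those of the whole series, so they say nothing particular to the 3 genes.

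Wt replicate 1 lacked more of the sites shared by the other wt lists than either knockout did. Of the 21 sites in both wt replicates 2 and 3, 20 had a peak in E12KO and 20 in E47KO, against 8 in wt replicate 1 (38.1%). In the whole series such regions had a peak in E12KO at 98.2%, in E47KO at 96% and in wt replicate 1 at 38.7%. Of the 9 sites in wt replicates 1 and 3, all had a peak in each knockout, against 8 in wt replicate 2 (77.1% in the whole series, with 95.9% in E12KO and 92.7% in E47KO). All 8 sites in wt replicates 1 and 2 were in both knockouts and in wt replicate 3, against 99.3%, 98% and 98.9% in the whole series. The lengths of the lists differ in the same direction and wt replicate 1 carries another false discovery rate label, and the part of either in these shares was not tested.

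The sites were also set beside all regions by the number of lists that held them. Of 44 sites, 22 (50.0%, 35.8 to 64.2) were in at least 2 wt lists, against 37.4% of all regions, and 8 (18.2%, 9.51 to 32.0) were in all 5 lists, against 12.7%. Of the 38 sites with a peak in a knockout, 33 (86.8%, 72.7 to 94.2) had one in both, against 67% of such regions in the series. Of the 15 sites that wt replicate 3 alone of the wt lists held, 11 (73.3%) had a knockout peak, against 78.2%. Of the sites, 3 were shared by the knockouts without a wt peak (6.82%, against 4.41%), all of them at Tcf4. E12KO alone had 3 sites (6.82%, against 9.61%), E47KO alone had 0 (against 5.32%), and a single wt list alone had 5 (11.4%, against 13.5%). Of all intervals computed for the genes together, given here or not, only that of the 86.8% leaves out the whole-series value. By gene, this share was 22 of 24 at Tcf4 (91.7%, 74.2 to 97.7), 10 of 12 at Tcf12 and 1 of 2 at Tcf3. The Tcf12 interval (83.3%, 55.2 to 95.3) takes in the 67% of the series. Neighbouring sites of a gene are not independent, and no difference was tested.

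**Figure D4:**
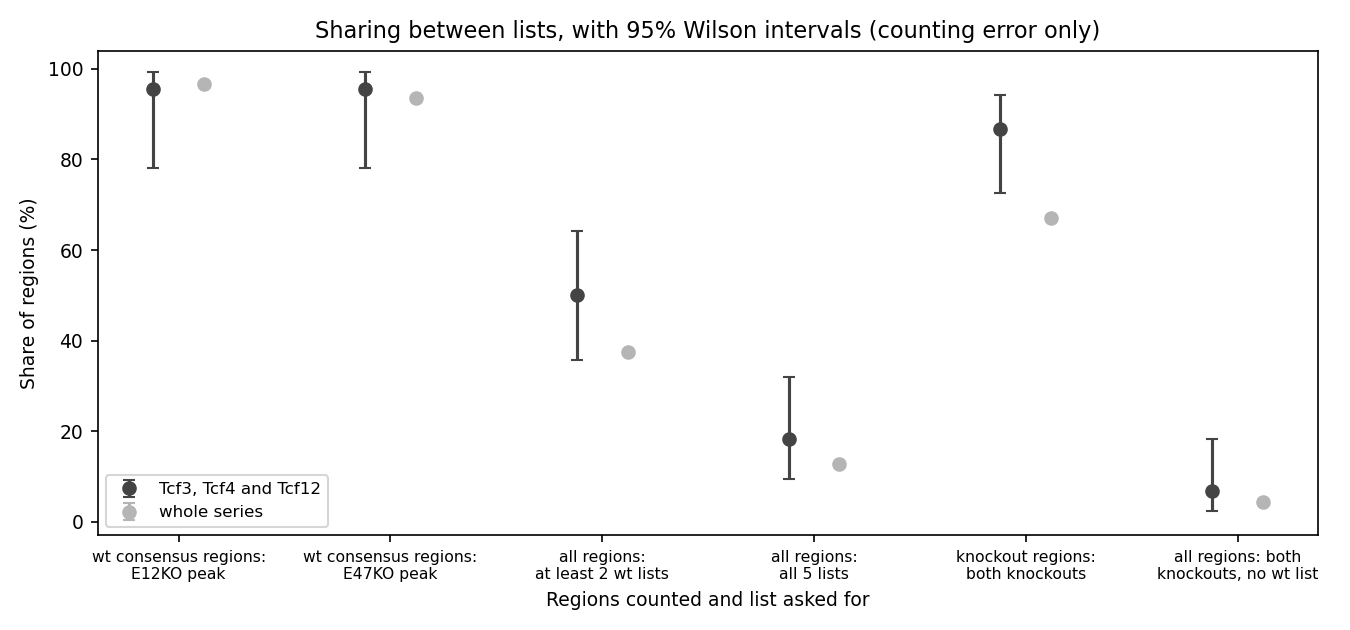
Share (%) of regions meeting each condition named on the x axis, for the sites of Tcf3, Tcf4 and Tcf12 (black, with 95% Wilson intervals) beside all regions of the series (grey). The shares of wt consensus regions with a knockout peak lie together at 95.5% against 96.6% and 93.6%, and the share of knockout regions found in both knockouts stands at 86.8% against 67%.

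By kind of site, 4 of 7 promoter sites were wt consensus sites, as were 12 of 22 intragenic, 4 of 12 upstream and 2 of 3 downstream sites. Over all regions, whatever their kind, the share was 37.4%. It was not counted by kind over the series, so these counts show no difference between kinds that is particular to the 3 genes. All promoter and intragenic consensus sites but the Tcf12 site above were in at least 4 lists. Of the peaks named to the 3 genes, the annotation put 18.4% at promoters in E12KO and 22.9% in E47KO, against 21.7% and 16.2% in wt replicates 2 and 3. Wt replicate 1 is left out of these shares, since its annotation counts peaks further from a start as promoters. Over all peaks the promoter share was 27.5% in E12KO and 25.3% in E47KO, against 19.5% and 24.9%. Introns held 44.7% of the 3 genes' peaks in E12KO and 42.9% in E47KO, against 47.8% and 48.6% in wt replicates 2 and 3. The intron share over all peaks was 32.7% in E12KO and 34.3% in E47KO, against 36.5% and 34.6%. The intron share of the 3 genes, 2 of them long, was above that of its own list in these 4 lists.

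Scores per peak, which are the authors' own, were available here for wt replicate 1, where 11 peaks belonged to Tcf4 and Tcf12. Their median fold enrichment over the caller's background was 8.96, against 7.48 over all 6814 peaks, and their median −log10 q was 18.2 against 13.5. By −log10 q and by pileup the highest of the 11 was the Tcf4 site 368 kb upstream, with a fold of 17.6, a pileup height of 82 and a −log10 q of 74.4 (rank 433). The Tcf4 site 328 kb upstream had the highest fold of the 11, 19.7, and a −log10 q of 65.8 (rank 522), and the intron 4 site had 18.5 and 51.1 (rank 765). The 3 highest of the 11, by fold and by −log10 q alike, were thus at Tcf4 and outside its promoters. The internal Tcf4 promoter, the widest site in the other lists, had a fold of 8.96 and a −log10 q of 18.2 here (rank 2565).

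At Tcf12 the site upstream of the internal promoter scored highest, with a fold of 9.69 and a −log10 q of 33.2 (rank 1318). The intron 5 site had a fold of 4.25 and a −log10 q of 7.7 (rank 5463), and the site 43.9 kb upstream had 5.91 and 7.48 (rank 5561). The site 21.5 kb upstream, at 4.02 and 3.98 (rank 6711), and the outer promoter, at 3.25 and 3.18 (rank 6791), were near the end of the list. A site in all 5 lists could therefore be one of the weakest of wt replicate 1. The Tcf4 peak found in wt replicate 1 alone had a fold of 9.61 and a −log10 q of 18.3 (rank 2516), close to those of the internal Tcf4 promoter.

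**Figure D5:**
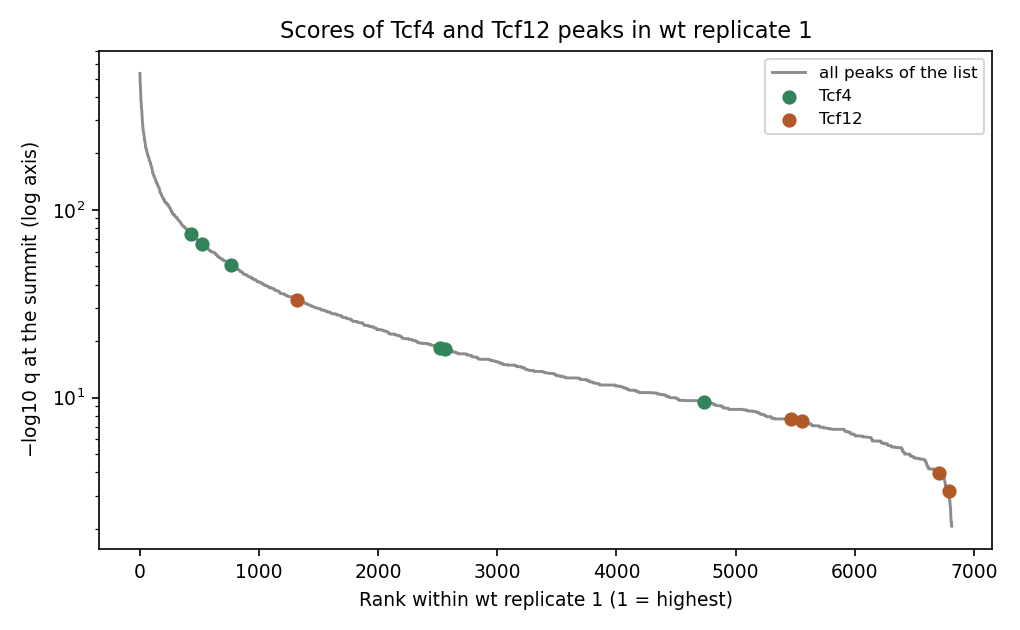
The authors' −log10 q at the summit (y, log axis) of all 6814 peaks of wt replicate 1, by rank (x), with the peaks named to Tcf4 (green) and Tcf12 (orange). The 3 highest are Tcf4 peaks at 74.4, 65.8 and 51.1, and the outer Tcf12 promoter stands near the end at 3.18.

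Peaks of the 3 genes were wider than their lists' medians in all 5 lists. Their median was 789.5 bp in E12KO (616 bp over the list) and 693 bp in E47KO (550 bp), against 492, 427 and 776 bp in wt replicates 1, 2 and 3 (432.5, 420 and 549 bp). At wt consensus sites the medians were 998 bp in E12KO and 882.5 bp in E47KO, against 500, 427 and 949.5 bp in the wt replicates. Over all consensus regions they were 788 bp in E12KO and 690 bp in E47KO, against 448, 441 and 690 bp. In wt replicate 2 alone the 3 genes' median was below that of all consensus regions.

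Among the 12090 genes that a list names by symbol, with a median of 2 sites per gene, 13 had more sites than Tcf4 and 113 had more than Tcf12. For wt consensus sites the numbers were 9 and 78. To allow for gene length, sites inside the gene were counted per 100 kb among the 1856 named genes of at least 100 kb. Tcf4 had 19 such sites, or 5.53 per 100 kb, and 68 long genes (3.66%) were denser. Tcf12 had 9, or 3.36 per 100 kb, with 235 (12.7%) denser, and the median long gene had 1.22. Tcf3, with 2 sites, was at the median.

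The genes whose peak counts over the 5 lists were most like those of Tcf4 were Nav2, Nfia and Tbl1xr1, with summed absolute differences of 7, 8 and 9 peaks. Nav2 had 21 peaks in E12KO and 21 in E47KO, against 8, 15 and 21 in wt replicates 1, 2 and 3. The gene most like Tcf12 was Tcf7l2, a Wnt effector gene, with a summed difference of 2 peaks. It had 12 in E12KO and 11 in E47KO, against 5, 8 and 12 in the wt replicates. For Tcf3, 81 genes had identical counts. Likeness here is of 5 counts that share each list's length.

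The genes of proteins that act with E proteins were looked up in the same lists. All 4 Id genes, whose products sequester E proteins, had a wt consensus region named to them, against 27.7% of 21896 protein-coding genes. Within 10 kb of a start 3 of them had one, Id4 being without, against 16.8%. All 4 had a consensus region, at any distance, with a peak in both knockouts. Over the series 92% of wt consensus regions had one in both, so this is nothing particular to the Id genes. All consensus sites of the 4 genes had a peak in E12KO. In E47KO all did at Id1 and Id3, against 3 of 4 at Id2 and 7 of 8 at Id4. In wt replicate 1 the strongest consensus region had a fold of 45.2 at Id1, 1409 bp upstream, and 35.8 at Id2, 3226 bp upstream. Its fold was 34.7 at Id3, 3578 bp upstream, and 21.6 at Id4, 63267 bp downstream. Each was above every Tcf4 and Tcf12 peak of that list.

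Of 20 class II bHLH genes, the potential dimer partners, 7 had a wt consensus region at any distance and 3 within 10 kb of a start, against 27.7% and 16.8% of protein-coding genes. Named in no list were 8 of them, and the matching share over all genes was not counted. An E12KO peak was named to 12 of the 20 and to 9884 of 21896 protein-coding genes. For E47KO the counts were 10 and 8901. Strong regions in all 5 lists were at the oligodendrocyte-lineage genes Olig1 (58.3-fold, 36610 bp downstream) and Olig2 (34.5-fold, 34216 bp upstream), and at Lyl1 (18.2-fold, 11404 bp downstream of its start, in an intron of a neighbouring gene).

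Of 12 coregulator genes, whose products E proteins recruit or share a complex with, 11 had a wt consensus region at any distance and 10 within 10 kb, against the same 27.7% and 16.8%. Like the other partner genes, these were chosen with earlier results of these data known. The shares do not allow for gene length or expression, and enrichment was not tested. The Groucho-family corepressor genes had 12 consensus sites at Tle3, 8 at Tle4 and 4 at Tle1. In wt replicate 1 the folds reached 37.5 at Tle3 (2095 bp upstream) and 21.7 at Tle4 (867 bp upstream). At Tle1 the region of the highest fold, 37.7, lay 380462 bp downstream of the start. The acetyltransferase gene Kat2b had 2 consensus sites, at up to 24.1-fold (12780 bp downstream). Lmo2 and Crebbp were named after their values were seen. Crebbp, also an acetyltransferase gene, had no wt consensus region but 4 peaks in E12KO and 3 in E47KO, against 4 in wt replicate 3. The single Lmo2 region was in E47KO and wt replicates 2 and 3 and not in E12KO. Over the series 96.6% of wt consensus regions had an E12KO peak, and the rest lacked one as this region did. With 1 library per knockout and a gene picked by its values, a difference between the knockouts at Lmo2 was not tested. Among the E protein genes themselves, 2 of 3 had a wt consensus region.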

How the data were processed

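E2A ChIP-seq peak lists of 5 libraries were used, 1 each of E12KO and E47KO and 3 of wt, with groups and replicate numbers from the labels. Input DNA was left out. The submitters' processing notes name mm9 as the build, MACS2 2.1.0, Picard 1.119 and BWA 0.7.13 as the tools, and no settings. The lists were deposited per library. The deposited table of wt replicate 1 alone gave scores here. As deposited by the authors, these are a pileup height (a coverage signal), a fold enrichment (a ratio to local background), and summit p and q values written as −log10, with a lowest −log10 q of 2.07. The other 4 lists carry another false discovery rate label than wt replicate 1 and hold no scores, so their thresholds could not be checked. Positions are printed as the tables give them.

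The annotation of wt replicate 1 counts the introns of genes on the minus strand from the other end (intron 16 of 20 for a Tcf12 peak at intron 5 in the other lists), calls peaks up to a further distance promoters and measures distance to another peak edge. Promoter sites and introns therefore follow the other lists where they have a peak, and the shares of peaks by kind leave wt replicate 1 out.

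Peaks overlapping by at least 1 bp were merged (Python 3.11.15, pandas 2.3.3). The merging code was run on simulated lists of well-separated sites. Close neighbouring sites and sites with 2 peaks in a list were not simulated. A site took the gene symbol the authors gave. Sites in at least 2 wt lists are wt consensus sites. Widths are summed where a list has 2 peaks at a site. Shares carry 95% Wilson intervals (SciPy 1.17.1) where given. No test was made, since each knockout has 1 library. The members, lists and rules were chosen with earlier results of these data known. Named were the 3 genes with every promoter site and every site in at least 4 lists in full, and the Id genes. Also named were up to 4 genes per partner list and the genes with the most similar 5-list counts. Crebbp and Lmo2 were named beyond that limit, after their values were seen. The partner lists hold a gene whose values are not reported here. Of 12140 gene identifiers, 12078 matched the RefSeq table of GRCm38.p6, used for gene names and promoter windows only.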

Additional observations from a re-analysis of the deposited data

How the results depend on the processing

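Of 57 alternative values for 6 counts (144 peaks, 22 wt consensus sites, 21 of these with a peak in E12KO and 21 in E47KO, 8 sites in all 5 lists, 6 in a knockout list and no wt list), 44 stayed within 1.5 times the reported value and 13 did not. A consensus of all 3 wt lists left 8 sites, 8 of them in E12KO and 8 in E47KO. Counting peaks within the gene or 10 kb of it, whatever their symbol, gave 5 sites in all 5 lists and 3 in a knockout list and no wt list, since distal sites drop out. Leaving out 1 wt replicate at a time gave 107 to 133 peaks, 8 to 21 consensus sites, 8 to 20 of them in E12KO and 8 to 20 in E47KO, and 8 to 20 sites in all remaining lists. The consensus fell to 9 sites without wt replicate 2 and to 8 without wt replicate 3, and sites in all remaining lists numbered 20 without wt replicate 1, because the rule then asks for other lists. Sites in a knockout list and no wt list ran from 6 to 17, with 17 without wt replicate 3. A minimum overlap of 0.5 of the shorter peak, merging across 500 bp, a minimum width of 300 bp, a −log10 q of at least 5 in wt replicate 1 and a limit of 100 kb moved none of the 6 counts past 1.5 times. No paired analysis was possible because each knockout has 1 library and shares no set of replicate numbers with wt. Depth is unknown, so a missing peak cannot be told from one below the threshold.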
